A study of Mus musculus with 8 samples.

Results

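The genes described here are 34 mouse genes listed by name because they are known to be imprinted. The rule uses no expression value, but the list was drawn up with earlier results of these data known. Of the 34, 33 had a transcript row in the deposited expression table, out of 22963 genes in all, and 25 reached a mean of 1 FPKM or more in at least 1 group. FPKM is the number of fragments scaled by transcript length and library depth. By textbook knowledge 10 are expressed from the maternal allele, 22 from the paternal allele and 2 (Gnas and Inpp5f) from an allele that depends on the transcript. They lie in 19 imprinted clusters or separate imprinted loci.

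Imprinted genes are expressed mainly from the copy inherited from one parent. The copy is chosen by DNA methylation laid down at control regions in the germ line and kept through the divisions of the early embryo. ZFP57 and TRIM28 protect that methylation, and DNMT1 with UHRF1 copies it to new DNA strands. Many maternally expressed imprinted genes restrain fetal or placental growth and many paternally expressed ones promote it, and embryonic stem cells are known to be prone to gain or lose imprints in culture. Bruce 4 is an inbred C57BL/6J line, so the libraries carry no sequence difference between the parental copies, and the parental alleles named below are background and not a measurement.

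RNA was sequenced from Bruce 4, a male wild-type mouse embryonic stem cell line, in 4 groups of 2 libraries. Cells were kept for 2 weeks on gelatin in Std medium, on gelatin in 2i medium, on laminin-511 (LN511) in Std medium or on LN511 in 2i medium. The labels do not give the composition of Std. 2i is a medium with inhibitors of the kinases MEK and GSK3 that keeps such cells naive, the state closest to the early embryo. The series' design text calls the 2 libraries of a group biological replicates, and all 8 come from 1 line. In bulk RNA, fewer cells expressing a gene and less RNA per cell cannot be told apart.

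The depth read from the steps between low values was 2411616 to 2887858 fragments per library, at which 1 fragment on a transcript of 2000 bases is worth 0.192 to 0.23 FPKM. Replicates correlated at 0.919 to 0.93 across expressed genes on the log2(FPKM + 1) scale and libraries of different groups at 0.865 to 0.917. The second of these ranges lies wholly below the first. Gelatin 2i replicate 1 stood apart in having 1654 assembled transcripts above 0, against 4743 to 5438 in the other libraries. The 10 embryonic stem cell markers were present throughout, with a summed level of 2481 to 2915 FPKM. The sum hid changes in opposite directions. At a limma adjusted p under 0.05, gelatin cultures had 6 of these markers higher and 3 lower with 2i. For LN511 cultures the counts were 5 and 3. Log2 fold changes on gelatin and LN511 were 3.02 and 3.64 for Nanog and 4.54 and 3.67 for Tfcp2l1. They were -2.08 and -2.24 for Utf1 and -0.80 and -1.57 for Lin28a. Whether this shift had a part in the levels of the imprinted genes was not tested. The 10 fibroblast markers summed to 5.03 to 6.15 FPKM in the 4 Std libraries and to 1.68 to 3.10 in the 4 in 2i, with Lum, Postn and Prrx1 at 0 in every library. Thy1, a surface marker of fibroblasts and other cells, was lower in 2i on gelatin (log2 fold change -1.88, limma adjusted p = 0.0064) and on LN511 (-1.17, adjusted p = 0.0285, lost whichever of the 4 LN511 libraries was left out, 0.0582 to 0.109). Pdgfrb, of the same 10 markers, went the other way in 2i on gelatin (1.35, limma adjusted p = 0.0196). That call was lost whichever of the 4 gelatin libraries was left out (0.0634 to 0.0895), and Pdgfrb was not called on LN511 (0.64, adjusted p = 0.152). The part of fibroblasts in the results below was not tested.

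Of the 34 genes, 19 could be tested. Another 10 lay below the filter of 1 FPKM in 2 libraries, 1 (Peg12) had no transcript row used here, and 4 (Igf2, Meg3, Rian and Peg3) held a 0 beside a level of 5 FPKM or more, which in these tables can be a failed estimate. Changes below are differences of log2(FPKM + 1), a scale that shrinks the fold of weakly expressed genes, each with its standard error (SE), and a gene is called when its adjusted p from limma over 10278 genes is under 0.05. In 2i on gelatin, 8 of the 19 fell and 2 rose. In that comparison 15.4% of all tested genes were called, 7.2% lower and 8.2% higher. In 2i on LN511, 10 of the 19 fell and 2 rose, where 18.5% of all genes were called, 9.95% lower and 8.58% higher. The median log2 fold change of the 19 genes was -1.001 on gelatin, against 0.004 over all genes, and -0.66 on LN511, against -0.037.

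H19, Phlda2, Grb10, Mest, Ndn, Magel2 and Nnat fell on both coatings, and Plagl1 rose on both. The calls depended on the table and on the libraries fitted. Fits of only the 4 libraries compared gave 6 calls on gelatin and 6 on LN511. With the deposited gene table, 12 of the genes could be fitted, among them 6 of the 10 called on gelatin and 8 of the 12 called on LN511. None of these was called on gelatin (4 of the 10, Gnas, Grb10, H19 and Plagl1, were not in that fit). On LN511 that fit called 3: Magel2 in the same direction, Impact with its sign turned, and Igf2, which could not be tested with the summed transcripts. Impact was at 0 in the gene table in every library outside LN511 2i. In the main fit, the 8 genes called in the same direction on both coatings are 80% of the 10 called on gelatin and 66.7% of the 12 called on LN511. The same overlap over all genes was not counted, so these shares cannot be read as a trait of the list. The called genes of the list came from both parental classes. Of the 5 tested maternally expressed genes, 3 fell on gelatin and 4 on LN511, and none rose, with all 5 estimates negative in both comparisons. Of the 12 paternally expressed genes, 4 fell and 2 rose on gelatin, and 6 fell and 2 rose on LN511. The difference between the parental classes was not tested.

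**Figure D1:**
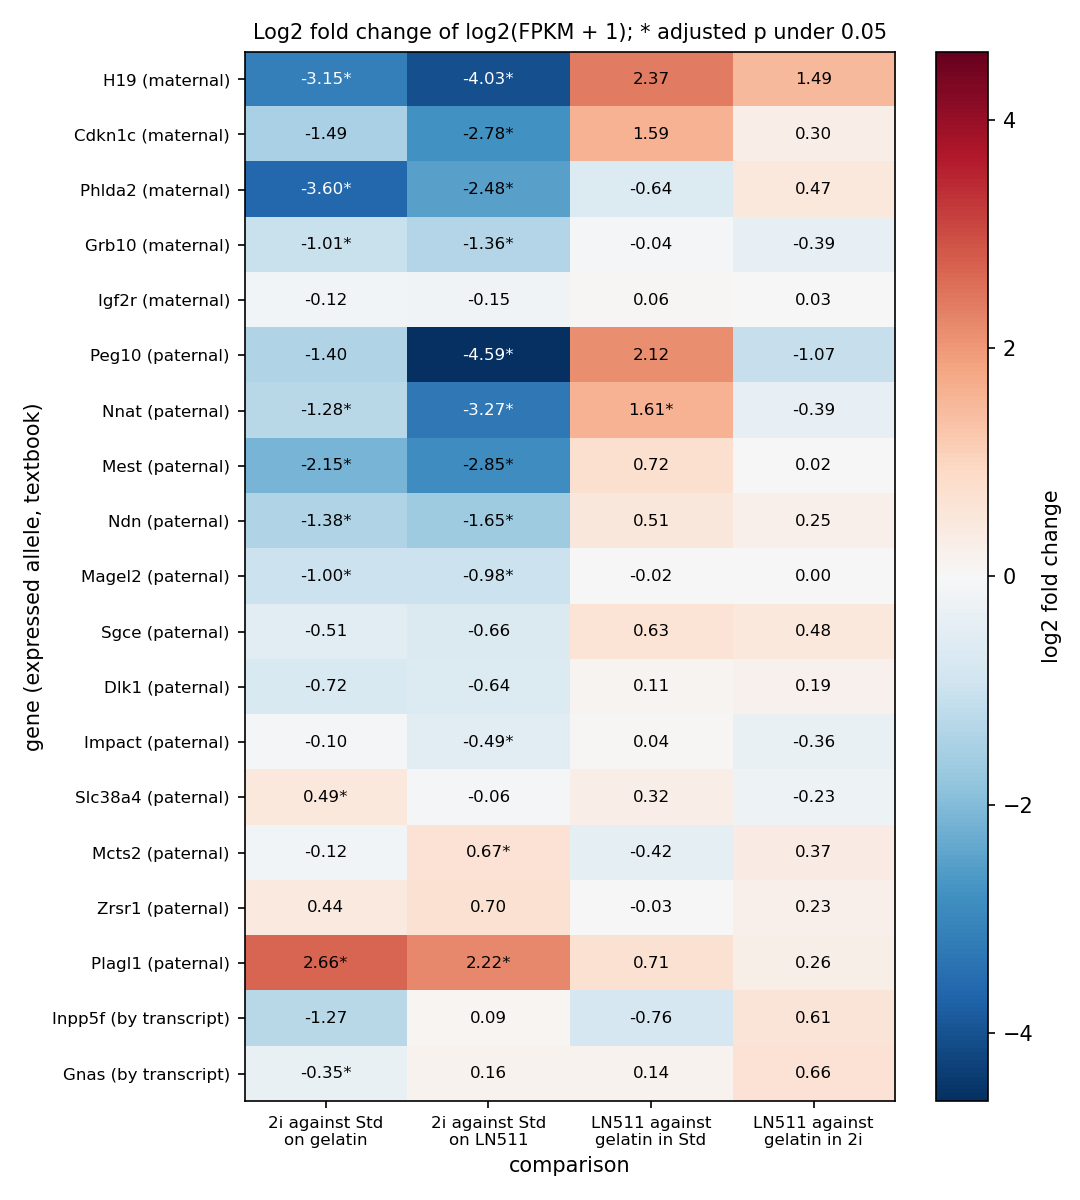
Log2 fold changes, on the log2(FPKM + 1) scale, of the 19 tested imprinted genes (rows, with the textbook expressed allele) in the 4 comparisons of 2 groups (columns), with asterisks on those at a limma adjusted p under 0.05. The columns for the medium hold 10 and 12 marked cells, mostly blue for lower in 2i, and the columns for the coating hold 1 (Nnat in Std) and 0. The size of the Magel2 values rests on the added 1 FPKM, since the gene was at 0 in every 2i library.

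The H19 and Igf2 pair opens the maternally expressed set. H19 (mm10 chromosome 7, 142575530 to 142578146, minus strand) is a non-coding RNA that restrains growth and hosts the microRNA miR-675. It stood at 14.1 and 16.7 FPKM on gelatin in Std, 2.40 and 0 on gelatin in 2i, 79.7 and 88.0 on LN511 in Std, and 4.41 and 3.95 on LN511 in 2i. Every Std library was above every 2i library, and the pair on LN511 in Std was far above all others. H19 fell by 3.15 on the log2 scale in 2i on gelatin (SE 0.51, limma adjusted p = 0.00991) and fell by 4.03 on LN511 (SE 0.51, limma adjusted p = 0.00331). The gelatin call was lost without gelatin Std replicate 1 (adjusted p = 0.0512) or replicate 2 (0.0629), and both calls were lost at a pseudocount of 0.1 (0.0567 on gelatin and 0.0751 on LN511). The row of the Mir675 hairpin was at 0 in all 8 libraries, and the level of the microRNA itself cannot be read from it.

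Igf2 (chromosome 7, 142650768 to 142666816, minus strand) encodes the paternally expressed fetal growth factor next to H19. The transcript rows used here were at 0 in both libraries on gelatin in Std and at 12.8 and 9.70 FPKM on LN511 in Std. The deposited gene table, where Igf2 is above 0 in all 8 libraries, gave 1.26 and 0.88 FPKM on gelatin in Std, 1.72 and 1.22 on gelatin in 2i, 17.1 and 17.6 on LN511 in Std, and 0.76 and 0.63 on LN511 in 2i. The LN511 Std pair was high and the other 6 libraries were all under 2 FPKM. With the gene table value, an alternative chosen after these values were seen, Igf2 fell in 2i on LN511 by 3.44 (SE 0.26, limma adjusted p = 0.000473). It did not pass on gelatin (log2 0.25, SE 0.26, adjusted p = 0.567). In this same pair of genes, then, the maternally expressed and the paternally expressed member were both highest on LN511 in Std.

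The next maternally expressed genes belong to the Kcnq1 cluster of chromosome 7. Cdkn1c (143458339 to 143461059), an inhibitor of cyclin-dependent kinases, stood at 1.88 and 9.09 FPKM on gelatin in Std, 1.30 and 0.615 on gelatin in 2i, 15.0 and 15.5 on LN511 in Std, and 1.15 and 1.63 on LN511 in 2i. The gelatin Std libraries were far apart, while the LN511 Std libraries were close and highest. It fell in 2i on LN511 by 2.78 (SE 0.56, limma adjusted p = 0.0185), a call lost without LN511 Std replicate 1 (0.085) or 2 (0.0886) or LN511 2i replicate 1 (0.0779) or 2 (0.0649). On gelatin it did not pass (log2 -1.49, SE 0.56, adjusted p = 0.132). There the estimate was -2.39 without gelatin Std replicate 1 (0.0222, which passes) and -0.58 without replicate 2.

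Phlda2 (143501545 to 143503145), which limits placental growth, stood at 75.01 and 70.6 FPKM on gelatin in Std, 6.42 and 4.02 on gelatin in 2i, 36.5 and 58.5 on LN511 in Std, and 4.89 and 11.1 on LN511 in 2i. All 4 Std libraries were above all 4 2i libraries, and in contrast to H19 and Cdkn1c the highest pair was gelatin Std. It fell by 3.60 on gelatin (SE 0.39, limma adjusted p = 0.0024), a call kept whichever library was left out. It fell by 2.48 on LN511 (SE 0.39, adjusted p = 0.00761), a call lost without LN511 Std replicate 2 (0.0518). Kcnq1ot1, the long antisense RNA that silences this cluster on the paternal copy, was at 0.0666 FPKM or less but above 0 in every library. On its row of 93092 bases 1 fragment is worth 0.0037 to 0.0045 FPKM. Kcnq1ot1 gave 0.0662 and 0.0666 FPKM on gelatin in Std, 0.0485 and 0.0435 on gelatin in 2i, 0.0272 and 0.0473 on LN511 in Std, and 0.0163 and 0.0261 on LN511 in 2i, below the filter. Its locus overlaps Kcnq1 on the other strand, and the strandedness of the libraries is not given in the sources used here.

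Grb10 (chromosome 11, 11930499 to 12037428, minus strand) encodes an adaptor that dampens insulin and IGF receptor signalling. It is expressed from the maternal allele in most tissues and from the paternal allele, through other promoters, in neurons. All of its signal lay in the row that starts at the upstream promoter (12037401), at 50.5 and 48.3 FPKM on gelatin in Std, 22.8 and 25.4 on gelatin in 2i, 47.7 and 48.0 on LN511 in Std, and 24.2 and 13.4 on LN511 in 2i. The other row, starting at 12027971, was at 0 throughout. The Std libraries lay within a narrow range and above every 2i library. Grb10 fell by 1.01 on gelatin (SE 0.24, limma adjusted p = 0.0377) and fell by 1.36 on LN511 (SE 0.24, adjusted p = 0.0126). The gelatin call was lost without gelatin Std replicate 1 (0.147) or 2 (0.128), without gelatin 2i replicate 1 (0.156) or 2 (0.115), or LN511 Std replicate 1 (0.071) or 2 (0.0711). The LN511 call was lost without LN511 Std replicate 1 (0.0652) or 2 (0.0672).

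Igf2r, the receptor that clears IGF2 and a maternally expressed gene of chromosome 17, showed no such pattern. Its level was 9.61 and 12.9 FPKM on gelatin in Std, 10.6 and 9.79 on gelatin in 2i, 12.3 and 11.2 on LN511 in Std, and 11.9 and 9.15 on LN511 in 2i, with the groups overlapping, and no comparison called it. Airn, the paternally expressed RNA that runs antisense through Igf2r and silences it on that copy in many tissues, was at 2.14 FPKM in gelatin Std replicate 1, 0.296 in LN511 Std replicate 1 and 0 elsewhere. On the row that held the higher value, 1 fragment is worth 1.08 to 1.29 FPKM. The remaining maternally expressed genes outside the Dlk1-Dio3 cluster were low, with Zim1 at 0.758 FPKM or less and Asb4 at 0.312 or less.

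**Figure D2:**
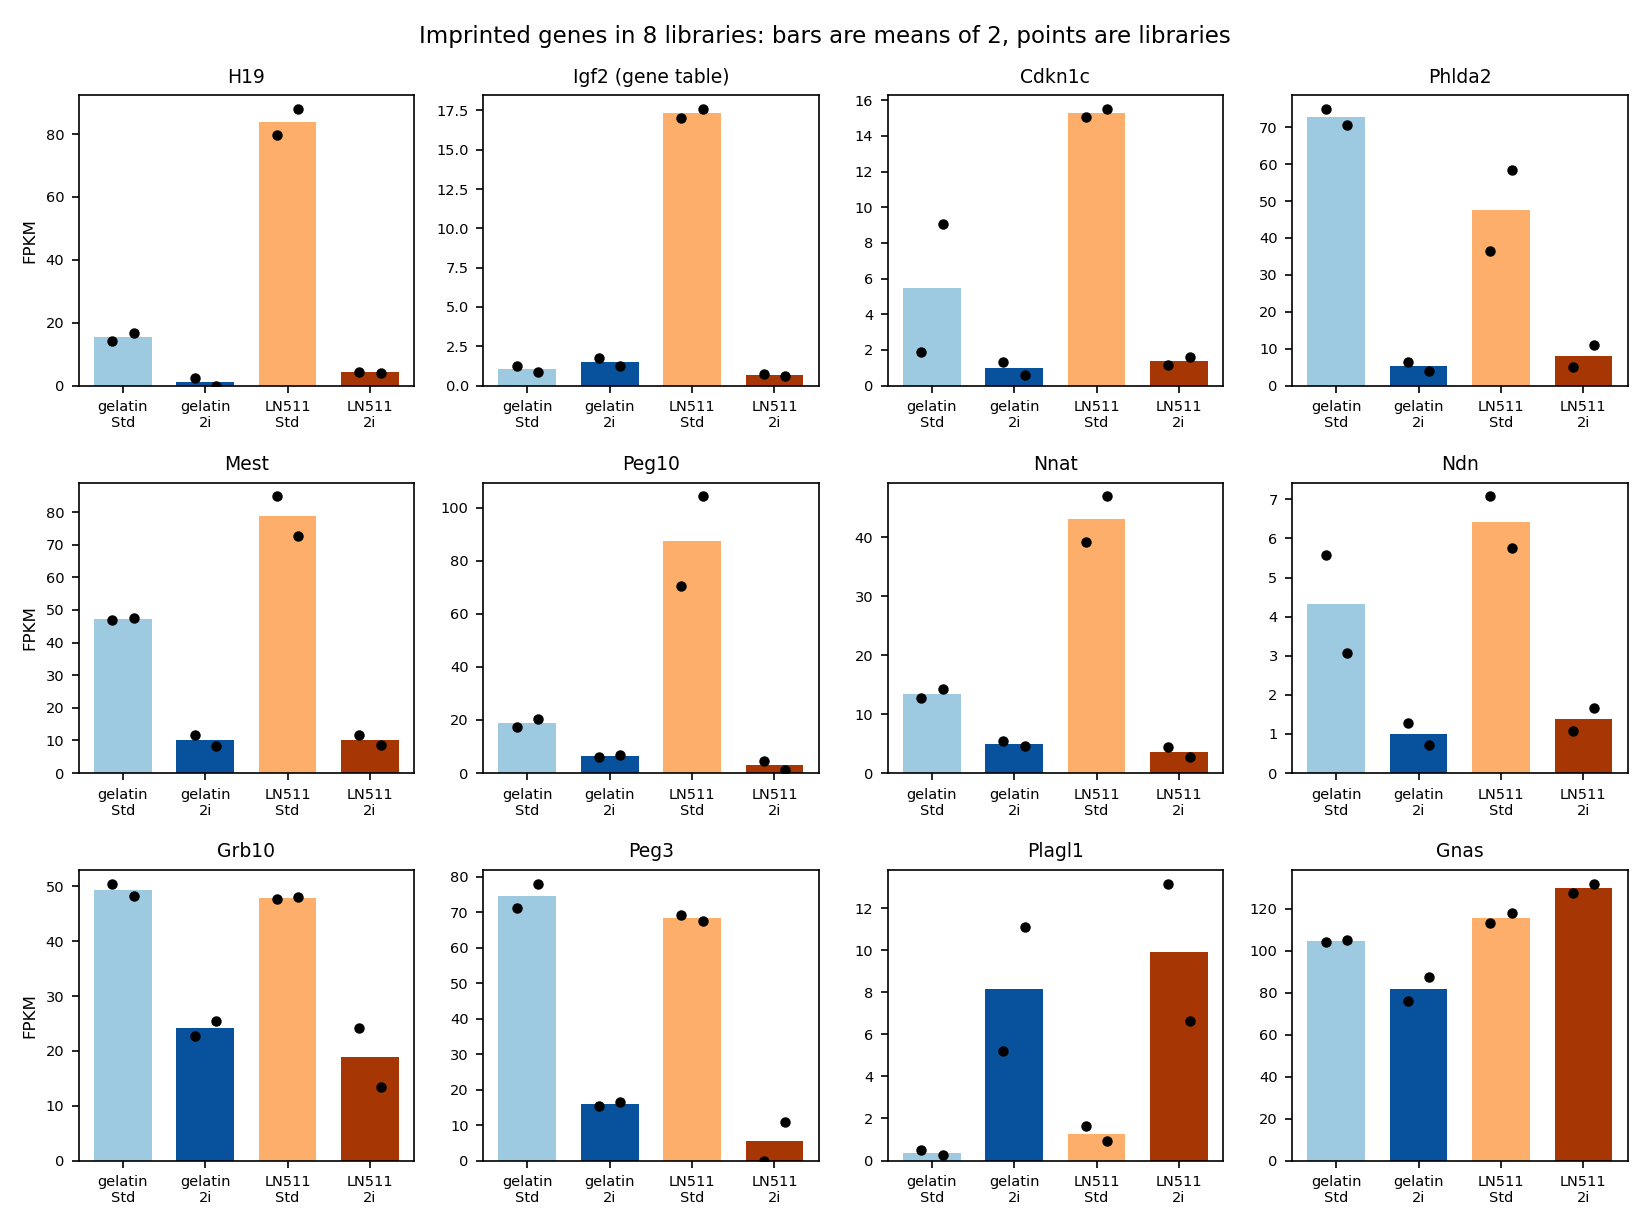
FPKM of 12 imprinted genes in the 4 groups (x axis), with bars for the mean of 2 libraries and points for the libraries. The y axes start at 0 and differ between panels. Igf2 is drawn from the deposited gene table and the others from summed transcripts. Phlda2, Grb10, Mest, Nnat and Peg3 are lower in 2i on both coatings, Plagl1 is higher, and H19, Igf2, Peg10 and Nnat are highest on LN511 in Std.

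Among paternally expressed genes, Mest (chromosome 6, 30733506 to 30748466, plus strand), an alpha/beta hydrolase gene linked to fetal growth, stood at 47.1 and 47.5 FPKM on gelatin in Std, 11.5 and 8.42 on gelatin in 2i, 84.8 and 72.7 on LN511 in Std, and 11.6 and 8.68 on LN511 in 2i. The 2i libraries of the 2 coatings overlapped, and the Std libraries did not. The row that starts at 30738050 carried all of it, and rows starting at 30733506 and 30738053 were at 0. Mest fell by 2.15 on gelatin (SE 0.20, limma adjusted p = 0.00122) and fell by 2.85 on LN511 (SE 0.20, adjusted p = 0.000367), and both calls were kept whichever library was left out. Copg2, which overlaps the Mest locus on the opposite strand, stood at 43.2 and 44.5 FPKM on LN511 in Std and 21.6 and 25.8 on LN511 in 2i, and fell by 0.87 there (SE 0.13, adjusted p = 0.00597).

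Peg10 (chromosome 6, 4747306 to 4760517, plus strand) derives from a retrotransposon and is needed to form the placenta. It stood at 17.5 and 20.5 FPKM on gelatin in Std, 6.18 and 6.98 on gelatin in 2i, 70.4 and 104 on LN511 in Std, and 4.70 and 1.29 on LN511 in 2i. The LN511 Std libraries were several fold above all others. On LN511 it fell by 4.59 in 2i (SE 0.42, limma adjusted p = 0.000956), and this call was kept in all 17 alternatives that could be run for it. The deposited gene table gave no value for Peg10 and was not among them. On gelatin the log2 fold change was -1.40 (SE 0.42, adjusted p = 0.072). It passed there without LN511 2i replicate 1 (0.0173) or 2 (0.0166), or with only the 4 gelatin libraries (0.0318). Sgce, the sarcoglycan gene that shares the Peg10 promoter region on the other strand, ran from 1.40 to 5.91 FPKM and was called in no comparison.

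Nnat (chromosome 2, 157560078 to 157562525, plus strand) encodes neuronatin, a small membrane protein, inside an intron of Blcap, which is on the other strand. It stood at 12.7 and 14.2 FPKM on gelatin in Std, 5.37 and 4.56 on gelatin in 2i, 39.3 and 46.9 on LN511 in Std, and 4.49 and 2.76 on LN511 in 2i. All Std libraries were above all 2i libraries, and LN511 Std was highest. It fell by 1.28 on gelatin (SE 0.23, limma adjusted p = 0.0152) and fell by 3.27 on LN511 (SE 0.23, adjusted p = 0.000421). The LN511 call was kept whichever library was left out. The gelatin call was lost without gelatin Std replicate 1 (0.0592) or 2 (0.0798) or without gelatin 2i replicate 1 (0.0572) or 2 (0.0799).

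In the Peg3 cluster of chromosome 7, Peg3 (6703892 to 6730462, minus strand), a zinc finger gene that acts in fetal growth and maternal behaviour, stood at 71.1 and 78.0 FPKM on gelatin in Std, 15.5 and 16.6 on gelatin in 2i, and 69.2 and 67.5 on LN511 in Std. In LN511 2i it was listed at 0 in replicate 1 and at 10.9 FPKM in replicate 2. That 0 kept Peg3 out of the main test. With LN511 2i replicate 1 left out, an alternative chosen after the 0 was seen, it fell by 2.15 on gelatin (SE 0.09, limma adjusted p = 0.00142) and fell by 2.54 on LN511 (SE 0.12, adjusted p = 0.00197), the lone LN511 2i library being assumed to vary like the other groups. With all libraries and the 0 kept, the gelatin comparison did not pass (adjusted p = 0.249) and the LN511 comparison did (0.0415). Usp29, its paternally expressed neighbour, was at 0.736 and 0.627 FPKM on gelatin in Std and at 0.201 or less in the other 6 libraries, below the filter.

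The cluster of chromosome 7 that corresponds to the Prader-Willi region holds Ndn and Magel2, MAGE family genes active in neurons, beside Snrpn and Peg12. Ndn stood at 5.57 and 3.08 FPKM on gelatin in Std, 1.28 and 0.724 on gelatin in 2i, 7.08 and 5.75 on LN511 in Std, and 1.08 and 1.66 on LN511 in 2i, with every Std library above every 2i library. It fell by 1.38 on gelatin (SE 0.34, limma adjusted p = 0.0384) and fell by 1.65 on LN511 (SE 0.34, adjusted p = 0.0193). The gelatin call was lost whichever of the 8 libraries was left out (0.0507 to 0.157), and the LN511 call without LN511 Std replicate 1 (0.0992) or 2 (0.0692) or LN511 2i replicate 1 (0.078). Magel2 was at 1.10 and 0.904 FPKM on gelatin in Std, at 0.746 and 1.23 on LN511 in Std, and listed at 0 in all 4 libraries in 2i. It was called lower on gelatin (adjusted p = 0.0429) and on LN511 (adjusted p = 0.0408), and no fold is given against groups at 0. The Magel2 call on LN511 was lost whichever library was left out (0.0507 to 0.143). On gelatin it was lost without gelatin Std replicate 1 (0.132) or 2 (0.0973), without gelatin 2i replicate 1 (0.136) or 2 (0.134), or LN511 2i replicate 1 (0.0629) or 2 (0.0632).

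Both Snrpn rows used here were at 0 in all 8 libraries. RefSeq lists 9 curated Snrpn transcripts, and the others were not analysed here, so the level of Snrpn is not known from these sums. Peg12 is given by the gene table, at 0.59 and 1.42 FPKM on gelatin in Std, 1.75 and 1.64 on gelatin in 2i, 1.30 and 1.20 on LN511 in Std, and 2.00 and 2.77 on LN511 in 2i. With those values no comparison called it.

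Plagl1 was the 1 gene of the list that rose in 2i on both coatings. It encodes a zinc finger factor that restrains the cell cycle and is expressed from the paternal allele (chromosome 10, 13090832 to 13131694, plus strand). It stood at 0.486 and 0.266 FPKM on gelatin in Std, 5.22 and 11.1 on gelatin in 2i, 1.63 and 0.909 on LN511 in Std, and 13.2 and 6.65 on LN511 in 2i. Every 2i library was above every Std library, though the replicates within each 2i group were far apart. Plagl1 rose by 2.66 on gelatin (SE 0.44, limma adjusted p = 0.0109) and by 2.22 on LN511 (SE 0.44, adjusted p = 0.0178). The gelatin call was lost without gelatin Std replicate 1 (0.0502) or 2 (0.0634) or without gelatin 2i replicate 2 (0.059). The LN511 call was lost without LN511 Std replicate 1 (0.0599) or 2 (0.0947) or LN511 2i replicate 1 (0.0751).

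The promoters of 4 called genes are printed here, each picked because its window holds the hexamer described next. ZFP57 binds the hexamer TGCCGC when its CpG is methylated, and capitals mark that hexamer or its reverse complement GCGGCA. Each window runs 5′ to 3′ on the strand of the gene, from 250 bases before to 50 bases after a RefSeq start (GRCm38.p6, the assembly that mm10 names). Mest is shown at chr6:30737800-30738099 (plus strand), the start of the row that carried its signal, Nnat at chr2:157559828-157560127 (plus strand), Plagl1 at chr10:13090582-13090881 (plus strand) and Grb10 at chr11:12037371-12037670 (minus strand).
Mest: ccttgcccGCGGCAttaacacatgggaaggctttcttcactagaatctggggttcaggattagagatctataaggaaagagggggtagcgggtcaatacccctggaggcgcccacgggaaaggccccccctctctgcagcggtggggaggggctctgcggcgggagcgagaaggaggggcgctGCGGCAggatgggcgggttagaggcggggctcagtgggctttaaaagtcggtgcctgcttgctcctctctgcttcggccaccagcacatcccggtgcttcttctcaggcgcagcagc
Nnat: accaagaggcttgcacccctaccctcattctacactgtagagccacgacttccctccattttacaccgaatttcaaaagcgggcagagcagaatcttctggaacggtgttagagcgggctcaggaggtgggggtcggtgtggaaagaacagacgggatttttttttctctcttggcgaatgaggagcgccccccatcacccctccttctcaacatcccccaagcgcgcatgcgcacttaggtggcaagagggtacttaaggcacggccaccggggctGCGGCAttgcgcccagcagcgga
Plagl1: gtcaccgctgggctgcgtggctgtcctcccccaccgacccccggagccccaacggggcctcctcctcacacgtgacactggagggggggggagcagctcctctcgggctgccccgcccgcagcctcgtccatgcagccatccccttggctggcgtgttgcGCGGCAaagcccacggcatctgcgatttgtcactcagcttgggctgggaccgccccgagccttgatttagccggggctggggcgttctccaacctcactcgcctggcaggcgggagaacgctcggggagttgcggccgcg
Grb10: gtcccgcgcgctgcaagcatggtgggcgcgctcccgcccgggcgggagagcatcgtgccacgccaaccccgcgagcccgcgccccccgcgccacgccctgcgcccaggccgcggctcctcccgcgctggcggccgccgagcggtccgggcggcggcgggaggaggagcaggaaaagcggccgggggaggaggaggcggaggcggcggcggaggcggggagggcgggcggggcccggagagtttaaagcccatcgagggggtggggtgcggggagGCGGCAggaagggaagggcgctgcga
The Mest window holds the hexamer at 2 places and the others at 1, and they hold 17, 17, 26 and 45 CpG sites in the order printed. Plagl1 rose and the other 3 genes fell. That all 4 carry the hexamer was set by how they were picked, so it says nothing about direction.

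A RefSeq promoter window was used for 27 of the 34 genes, and 10 of the 27 (37.0%) had the hexamer on either strand in at least 1 window. Any window on chromosome 18, where Impact lies, was left out for the 34 genes but not for the count over all genes. Over all 27025 genes with such windows the share was 13.1%. By window, 11 of 43 (25.6%) held it, against 11.6% of 32851 windows of the same 300 bases, and the median number of CpG sites was 11 against 7. The tested genes with the hexamer were Grb10, Mcts2, Mest, Nnat and Plagl1, of which 3 fell and 1 rose on gelatin and 3 fell and 2 rose on LN511. Of 9 tested genes with a window and no hexamer, 4 fell and 1 rose on gelatin and 3 fell on LN511. The matches are letters in a window, and the files hold no methylation or binding data.

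Another 4 paternally expressed genes were expressed in all groups and moved little. Impact, a gene acting on translational control, stood at 39.8 and 33.7 FPKM on LN511 in Std and 24.3 and 27.3 on LN511 in 2i. It fell there by 0.49 (SE 0.13, limma adjusted p = 0.043), a call lost whichever library was left out (0.0616 to 0.186). Slc38a4, an amino acid transporter gene of the placenta and liver, stood at 35.4 and 32.9 FPKM on gelatin in Std and 43.6 and 53.9 on gelatin in 2i and rose by 0.49 (SE 0.13, adjusted p = 0.0484), again a call lost whichever library was left out (0.0534 to 0.194). Mcts2 is a retrogene within H13, on the same strand, and reads could be shared with its parent gene Mcts1. It stood at 24.7 and 27.2 FPKM on LN511 in Std and 36.6 and 47.9 on LN511 in 2i and rose by 0.67 (SE 0.16, adjusted p = 0.0297). That call was lost without gelatin Std replicate 1 (0.0532) or 2 (0.0533), LN511 Std replicate 1 (0.134) or 2 (0.0864), or LN511 2i replicate 2 (0.103). Zrsr1, a splicing factor retrogene inside Commd1, was at 2.16 to 2.37 FPKM in the 4 Std libraries and 3.21 to 4.35 in the 4 2i libraries, which did not overlap, and was not called.

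Gnas and Inpp5f are imprinted by transcript. Gnas encodes the Gs alpha subunit that couples hormone receptors to cyclic AMP, and it has promoters of opposite imprinting. As a sum it stood at 104 and 105 FPKM on gelatin in Std, 76.3 and 87.7 on gelatin in 2i, 113 and 118 on LN511 in Std, and 128 and 132 on LN511 in 2i. It fell in 2i on gelatin by 0.35 (SE 0.09, limma adjusted p = 0.0434), a call lost whichever library was left out (0.0517 to 0.175), and it was not called on LN511. The rows that start at the maternally expressed Nesp promoter (chromosome 2, 174284320) and at the paternally expressed XL promoter (174297859) were at 0 in every library.

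Most of the Gnas signal was in the non-coding row that starts at 174327699, the exon 1A promoter, which is expressed from the paternal allele. It gave 54.9 and 60.6 FPKM on gelatin in Std, 41.8 and 50.7 on gelatin in 2i, 74.8 and 77.8 on LN511 in Std, and 69.2 and 85.9 on LN511 in 2i. The LN511 libraries were all above the gelatin libraries in this row, which was not tested by itself. A Gs alpha row that starts at 174330089 gave 34.7 and 44.5, 22.6 and 37.0, 38.7 and 40.2, and 36.4 and 46.1 FPKM in the same order of groups. A second Gs alpha row, starting at 174330006, was above 0 in replicate 1 of gelatin Std, gelatin 2i and LN511 2i (14.5, 11.9 and 22.0 FPKM) and 0 elsewhere. These rows overlap, so the split between them is an estimate.

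**Figure D3:**
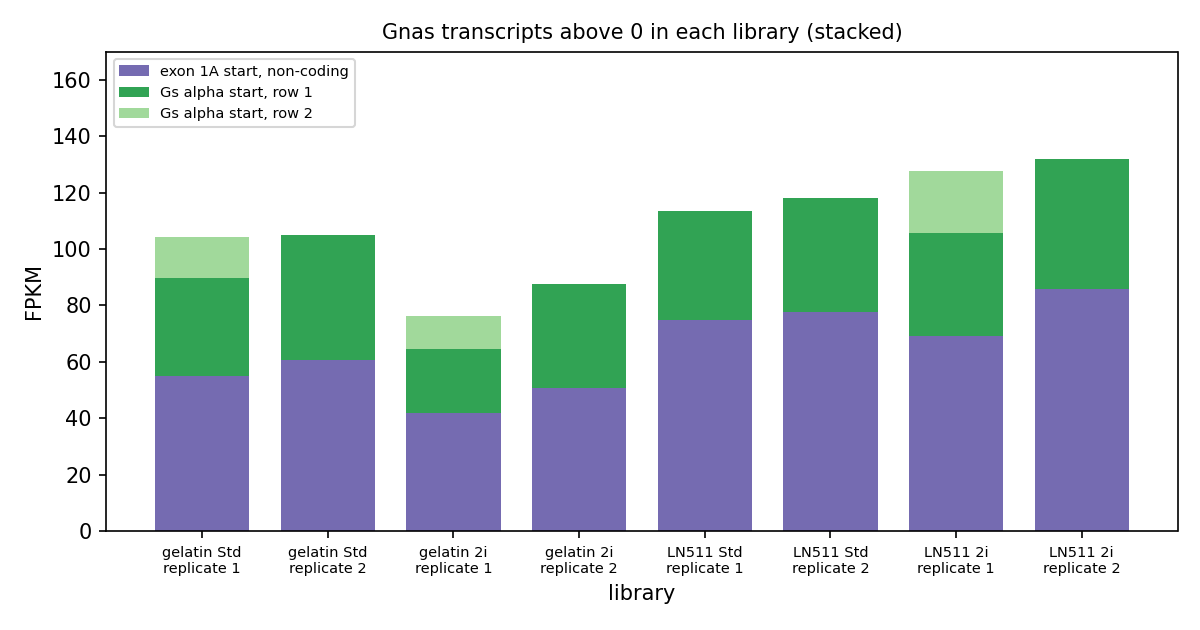
Stacked FPKM (y axis) of the 3 Gnas transcript rows above 0 in each of the 8 libraries (x axis). The row from the exon 1A start is the largest part in every library, and the second Gs alpha row appears in 3 libraries.

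Inpp5f, a phosphoinositide phosphatase gene whose imprinted, paternally expressed form starts at an internal promoter, was measured by the full-length row (chromosome 7, 128611360 to 128696425). The imprinted form was not analysed here. The full-length row stood at 7.55 and 6.81 FPKM on gelatin in Std, 2.83 and 1.98 on gelatin in 2i, 2.08 and 6.59 on LN511 in Std, and 4.54 and 3.80 on LN511 in 2i. The LN511 Std libraries were far apart. The log2 fold change in 2i on gelatin was -1.27 (limma adjusted p = 0.0992), which passed without LN511 Std replicate 1 (0.036) or 2 (0.0387).

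The Dlk1-Dio3 cluster of chromosome 12 gave erratic values. Its maternally expressed non-coding RNAs are known to be silenced in some embryonic stem cell lines with poor developmental capacity. Meg3 was at 5.11 FPKM in gelatin 2i replicate 1, 6.30 and 5.44 on LN511 in Std, 6.13 in LN511 2i replicate 2 and 0 in the other 4 libraries. Rian, a host of small nucleolar RNAs, was at 17.4 FPKM in gelatin Std replicate 2, 5.73 in LN511 2i replicate 2 and 0 in the other 6. Mirg, a microRNA host, was at 1.47, 0.996 and 0.881 FPKM in gelatin Std replicate 2, gelatin 2i replicate 2 and LN511 2i replicate 2 and at 0 in the others. Each of these 3 genes had a group with 1 replicate at 0 and the other above it, so no direction is given.

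On the paternal side of the cluster, Dlk1, a Notch-like growth regulator, was at 0.793 and 1.02 FPKM on gelatin in Std, 0.192 and 0.126 on gelatin in 2i, 1.31 and 0.831 on LN511 in Std, and 0.348 and 0.287 on LN511 in 2i. The Std and 2i libraries did not overlap, and no comparison called it. Rtl1, a retrotransposon-derived gene needed in the placenta, was at 0.229 FPKM or less, and the hairpin row of Mir127, which is antisense to it, was at 0 in all 8 libraries. The level of that microRNA cannot be read from its hairpin row either. Dio3 is not among the 34 genes but lies at the end of the cluster and inactivates thyroid hormone. It was listed at 0 in both libraries on gelatin in Std and at 0.847 and 1.04 FPKM on LN511 in Std, against 7.80 and 7.75 on gelatin in 2i and 6.71 and 8.03 on LN511 in 2i. Its zeros kept it out of the test. The last genes of the list were near 0, with Nap1l5 at 0 in every library and Peg13, which lies within Trappc9, at 0.383 to 1.43 FPKM.

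The coating comparisons asked what LN511 changed in each medium. In Std, 1 of the 19 genes was called, where 2.1% of all genes were called, 1.54% higher and 0.564% lower. That gene was Nnat, which rose by 1.61 on LN511 (SE 0.23, limma adjusted p = 0.0276). The call was lost without gelatin Std replicate 1 (0.116) or 2 (0.107), without gelatin 2i replicate 1 (0.0658) or 2 (0.065), or LN511 Std replicate 1 (0.119) or 2 (0.151). H19 (log2 2.37, SE 0.51, adjusted p = 0.0782) and Peg10 (log2 2.12, SE 0.42, adjusted p = 0.0617) missed the threshold although their libraries did not overlap. H19 passed without gelatin 2i replicate 1 or 2 (0.015 each) and Peg10 without LN511 2i replicate 1 (0.0233) or 2 (0.0226). Cdkn1c was further from it (log2 1.59, adjusted p = 0.235), and its estimate was 0.69 without gelatin Std replicate 1 and 2.50 without replicate 2. With the gene table value, Igf2 was higher on LN511 by 3.15 (SE 0.26, adjusted p = 0.00509), a call lost without LN511 Std replicate 1 (0.0666) or 2 (0.0515).

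In 2i, limma called 0 of the 19 genes between the coatings and 0.0195% of all genes (all higher), while 4 of the 19 and 11.9% of all genes had an unadjusted p under 0.05. Gnas came nearest to the threshold, higher on LN511 by 0.66 (SE 0.09, limma adjusted p = 0.0657). H19 had a log2 difference of 1.49 (adjusted p = 0.334) that was 2.37 without gelatin 2i replicate 1 and 0.61 without replicate 2. Peg10 had one of -1.07 (adjusted p = 0.382), which was -1.73 without LN511 2i replicate 1 and -0.41 without replicate 2. The test of whether the response to 2i differed between coatings called 0 of the 19 and 0.185% of all genes (0.0486% higher and 0.136% lower), with 6 of the 19 and 12.2% of all genes under an unadjusted p of 0.05. Nnat (log2 -1.997, SE 0.33, adjusted p = 0.0967) and Peg10 (log2 -3.19, SE 0.59, adjusted p = 0.126) had the largest negative differences among the 19. A larger fall on LN511 than on gelatin was therefore not shown for any of them by this test.

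In 8 of the 23 genes at 1 FPKM or more in 2 libraries, both LN511 Std libraries lay above the other 6 (H19, Igf2, Cdkn1c, Mest, Peg10, Sgce, Ndn and Nnat). The share of all genes with this pattern was not counted, so the 8 cannot be read as a trait of the list. The summed trophoblast and neuroectoderm markers were highest in those LN511 Std libraries. The primitive endoderm sum, most of it Sparc, was highest on LN511 in 2i, and the mesendoderm sum was highest on gelatin in 2i. The 10 trophoblast markers summed to 25.3 and 29.3 FPKM on gelatin in Std, 45.8 and 45.9 on gelatin in 2i, 192 and 195 on LN511 in Std, and 36.2 and 44.8 on LN511 in 2i. Most of that was the keratin Krt8, at 87.3 and 93.4 FPKM on LN511 in Std and 4.77 to 13.6 in the other 6 libraries, and the keratin Krt18, at 75.5 and 76.7 against 3.66 to 10.7. The keratin Krt7 and the factors Hand1 and Gata3 also had their highest mean there, at 8.94, 2.73 and 2.05 FPKM. Hand1 rose on LN511 in Std by 1.61 (SE 0.29, limma adjusted p = 0.0492), a call lost whichever library was left out (0.0785 to 0.183). The trophoblast factors Tfap2c, Eomes, Cdx2 and Gata2 did not peak there. Tfap2c averaged 7.99, 19.2, 10.6 and 11.2 FPKM and Eomes 0.49, 5.33, 0.68 and 1.92 in the same order of groups, both highest on gelatin in 2i. Cdx2 averaged 0.30, 1.01, 0.54 and 1.98, highest on LN511 in 2i. Elf5, a defining trophoblast factor, stayed below 1 FPKM in every library. The 10 primitive endoderm markers summed to 54.9 and 57.8, 125 and 112, 115 and 120, and 184 and 205 FPKM in the same order of groups, with Gata4, Gata6, Sox17, Pdgfra and Foxa2 below 1 FPKM throughout. Sparc averaged 46.7, 110, 94.4 and 175 FPKM, and Lama1 was likewise highest on LN511 in 2i (mean 7.01). Col4a1, Sox7 and Dab2 had their highest mean on LN511 in Std, at 14.2, 1.17 and 1.71 FPKM. The 7 neuroectoderm markers summed to 32.3 and 27.3, 22.6 and 27.2, 41.8 and 51.9, and 27.8 and 25.9 FPKM, with Neurog2 at 0 and Pax6 below 1 FPKM in every library. Of them the neuronal factor Neurod1 fell by 2.52 in 2i on gelatin (SE 0.30, limma adjusted p = 0.00321) and by 2.35 on LN511 (SE 0.30, adjusted p = 0.00324). Nes, an intermediate filament gene of neural progenitors, fell by 1.55 (SE 0.30, adjusted p = 0.0171) and by 1.48 (SE 0.30, adjusted p = 0.0176). The Nes call on gelatin was lost whichever of the 4 gelatin libraries was left out (0.0676 to 0.0852), and that on LN511 was lost without Std replicate 2 of that coating (0.0688) or either of its 2i libraries (0.0646 and 0.0651). Sox1 and Tubb3 of the same list had positive estimates in 2i on gelatin (0.67 and 0.73, limma adjusted p = 0.123 and 0.0923). Map2 had a negative one there (-0.81, adjusted p = 0.099), and none of them was called for 2i on either coating. The 5 mesendoderm markers with a row summed to 0.198 and 0.37, 5.96 and 4.81, 0 and 1.30, and 3.465 and 3.57 FPKM in the same order of groups. T, at 0 in every Std library, was called higher in 2i on gelatin (limma adjusted p = 0.0208) and LN511 (0.0251). Each T call was lost whichever library of its coating was left out (0.0544 to 0.0905). Gsc was called higher in 2i on gelatin (0.00963) and not on LN511 (0.051). Krt8 rose on LN511 in Std by 3.93 (SE 0.16, limma adjusted p = 0.000351). The part of such cells in the levels of the imprinted genes was not tested.

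Genes that keep and write imprint methylation were read from the same libraries. Zfp57, the zinc finger protein that protects imprints, stood at 97.8 and 87.5 FPKM on gelatin in Std, 338 and 151 on gelatin in 2i, 97.6 and 96.6 on LN511 in Std, and 196 and 160 on LN511 in 2i. The 2i libraries were all higher, with gelatin 2i replicate 1 far above its partner. It rose on gelatin by 1.28 (SE 0.33, limma adjusted p = 0.0467) and did not pass on LN511 (log2 0.86, SE 0.33, adjusted p = 0.127). Without gelatin 2i replicate 1 the gelatin value was 0.70 (0.0566). The call was also lost without gelatin Std replicate 1 (0.142) or 2 (0.178), LN511 Std replicate 1 or 2 (0.0848 each), or LN511 2i replicate 1 (0.0712) or 2 (0.0713).

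Uhrf1, which guides DNMT1 to newly copied DNA, stood at 133 and 134 FPKM on gelatin in Std, 248 and 262 on gelatin in 2i, 106 and 86.2 on LN511 in Std, and 209 and 201 on LN511 in 2i. It rose by 0.93 on gelatin (SE 0.11, limma adjusted p = 0.00289) and by 1.09 on LN511 (SE 0.11, adjusted p = 0.0012). Dnmt1, the maintenance methyltransferase, was at 76.3 to 84.5 FPKM in 7 libraries and 49.5 in LN511 2i replicate 2 and was not called. Trim28, the ZFP57 cofactor, was at 563 and 560 FPKM on gelatin in Std, 344 and 466 on gelatin in 2i, 616 and 545 on LN511 in Std, and 738 and 771 on LN511 in 2i. Its estimates had opposite signs, -0.49 on gelatin (adjusted p = 0.0601) and 0.38 on LN511 (adjusted p = 0.109), and neither passed. Of 10 tested genes of imprint maintenance, 2 rose and 1 fell on gelatin, and 1 rose and 1 fell on LN511. The gene that fell on both was Hells, a chromatin remodeller, by 0.57 and 0.76 (adjusted p = 0.0206 and 0.0066). Its gelatin call was lost without gelatin Std replicate 1 (0.0954) or 2 (0.0825) or without gelatin 2i replicate 1 (0.0904) or 2 (0.0927).

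The methyltransferases that lay down new methylation fell in 2i. Dnmt3a stood at 75.6 and 75.1 FPKM on gelatin in Std, 4.41 and 4.68 on gelatin in 2i, 82.4 and 87.2 on LN511 in Std, and 5.58 and 4.42 on LN511 in 2i. Dnmt3l, their cofactor in germ cells, stood at 491 and 547, 152 and 129, 533 and 539, and 227 and 236 FPKM in the same order. Dnmt3b stood at 122 and 260, 14.6 and 25.6, 211 and 121, and 48.5 and 46.5 FPKM. Of the 4 tested writers and erasers of methylation, these 3 fell on both coatings and Tet3 was not called. The Dnmt3b call on LN511 (adjusted p = 0.0357) was lost without LN511 Std replicate 1 (0.17) or 2 (0.0628) or LN511 2i replicate 1 (0.112) or 2 (0.128).

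**Figure D4:**
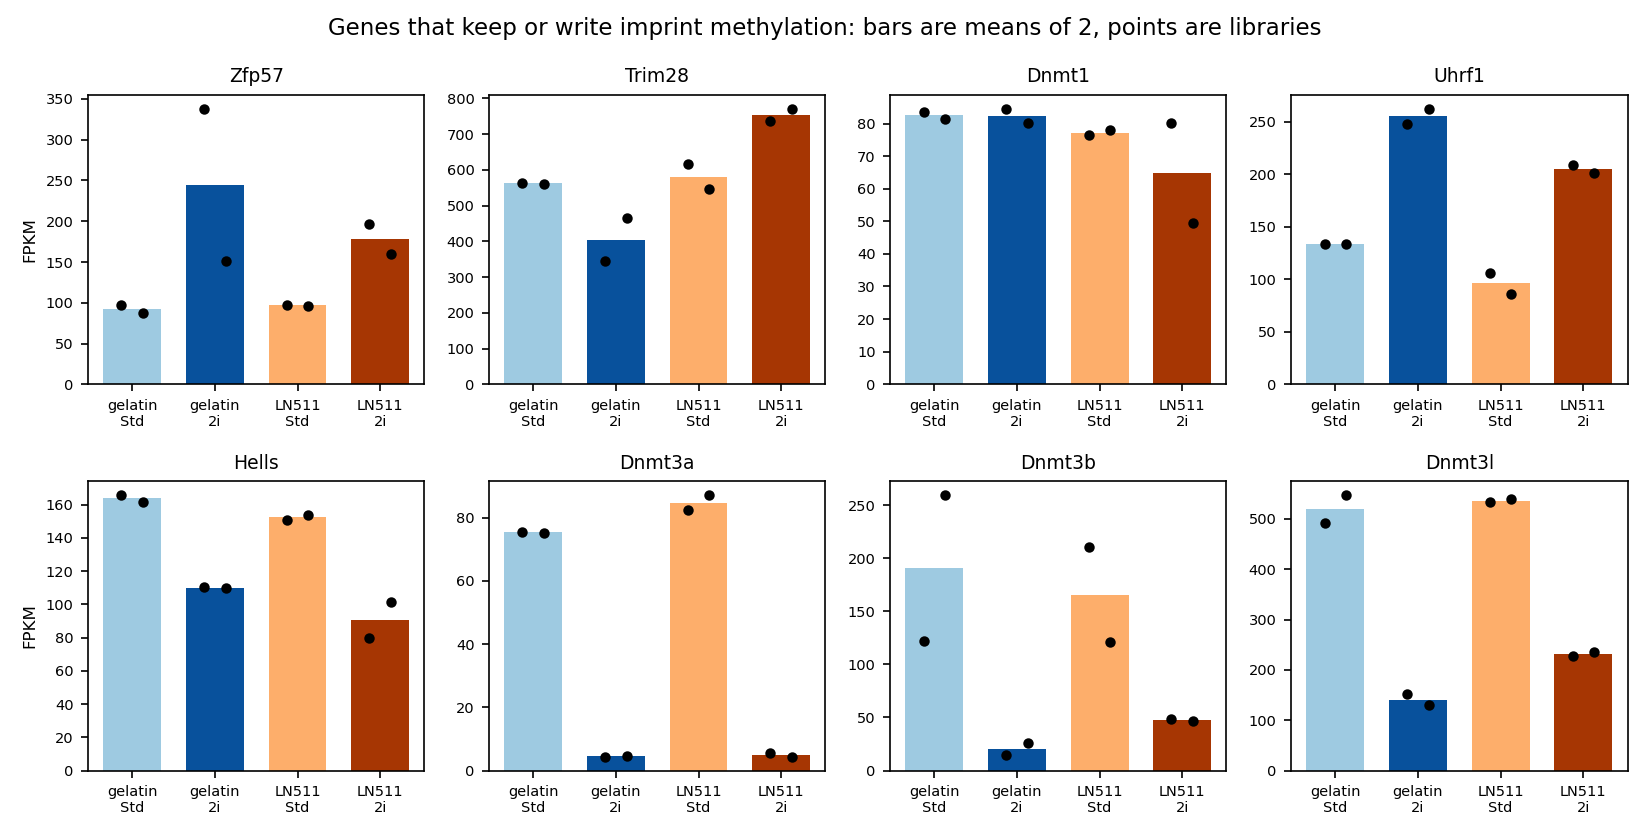
FPKM of 8 genes that keep or write imprint methylation in the 4 groups (x axis), with bars for the mean of 2 libraries and points for the libraries. The y axes start at 0 and differ between panels. Dnmt3a, Dnmt3b and Dnmt3l are lower in 2i on both coatings, Uhrf1 is higher, and the 2 Zfp57 libraries of gelatin 2i lie far apart at 338 and 151 FPKM.

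A further list of 52 imprinted or imprint-neighbouring genes outside the 34 had 23 members that could be tested. On gelatin 3 rose (Cobl, Qpct and Cd81) and 1 fell (Atp10a). On LN511 2 rose (Cobl and Qpct) and 3 fell (Atp10a, Copg2 and Gatm). These counts of 4 and 5 among 23 are near the 15.4% and 18.5% called over all genes. The Atp10a call on gelatin was lost without gelatin Std replicate 1 (limma adjusted p = 0.0607) or without gelatin 2i replicate 1 (0.0667) or 2 (0.0663). The calls of Qpct and Gatm on LN511 were lost without LN511 Std replicate 1 (0.0694 and 0.0843) or 2 (0.107 and 0.123), or without LN511 2i replicate 2 (0.0963 and 0.112). The median log2 fold change over the 23 was -0.23 on gelatin and 0.10 on LN511. Cobl, an actin nucleator gene beside Grb10, stood at 5.64 and 6.12 FPKM on gelatin in Std and 34.2 and 35.9 on gelatin in 2i, and rose by 2.39 (SE 0.27, limma adjusted p = 0.00289), in the direction opposite to Grb10. On LN511 it stood at 7.05 and 13.8 FPKM in Std and 31.5 and 32.3 in 2i and rose by 1.59 (SE 0.27, adjusted p = 0.0103), a call lost without LN511 2i replicate 2 (0.0506).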

How the data were processed

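RNA-seq libraries of 8 cultures were analysed. The authors deposited FPKM values for genes and for transcripts, 1 column per library, and 0 sample columns were left out. The submitters' processing notes name mm10 with TopHat2 2.1.1 and with Cufflinks 2.1.1. What each tool did, the annotation and the strandedness are not given in the sources used. The gene table lists at 0 47.3% of 52481 values that transcripts put at 1 FPKM or more, so the FPKM of RefSeq transcripts were summed per gene (31786 of 32688 rows matched a symbol in RefSeq for GRCm38.p6). The 21844 assembled rows were left out. Transcript starts and strands are from GENCODE vM21.

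Genes with 1 FPKM or more in 2 libraries were kept (11244). Of these, 966 with a doubtful 0 (a 0 beside a replicate of at least 5 FPKM, or a group at 0 where another averaged at least 5 FPKM) were not tested, which left 10278. limma 3.58.1 in R 4.3.3 (eBayes with trend) was run on log2(FPKM + 1), with 1 mean per group over 8 libraries (4 residual degrees of freedom) and Benjamini-Hochberg adjustment within each of 5 comparisons. P-values measure the spread between 2 libraries per group. The script was tested on simulated data. The genes and lists were chosen with earlier results of these data known. All 34 genes are accounted for, with statistics for those called or changed by 1 or more on the log2 scale. List genes were named by adjusted p, up to 4 per list and comparison, beside a fixed panel. Dio3 and the cell type markers with values were named after their values were seen.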

Additional observations from a re-analysis of the deposited data

Results flagged for a closer look

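The response of Igf2 to 2i differed between coatings when its value was taken from the deposited gene table, an alternative chosen after the data were seen. The 2i effect on LN511 minus that on gelatin was -3.69 on the log2(FPKM + 1) scale (SE 0.36, limma adjusted p = 0.0281). Igf2 stood at 17.1 and 17.6 FPKM in LN511 Std and at 0.63 to 1.72 FPKM in the other 6 libraries. The difference did not pass whichever of the 8 libraries was left out (adjusted p 0.0659 to 0.137), with values of -3.84 to -3.54. With the summed transcripts and their zeros kept it was -4.31 (adjusted p = 0.0387). The keratin Krt8 also had an interaction, of -3.66 (SE 0.22, adjusted p = 0.0114), lost without gelatin Std replicate 1 (0.065) or 2 (0.077) or LN511 Std replicate 1 (0.116) or 2 (0.0597). Whether the cells that express it hold the Igf2 signal was not tested.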

How the results depend on the processing

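The main counts were 10 genes called for 2i on gelatin, 12 for 2i on LN511, 1 for LN511 in Std, 0 for LN511 in 2i and 0 for the interaction. Leaving out 1 library gave 2 to 7, 4 to 10, 0 to 2, 0 and 0. The deposited gene table gave 0, 3, 1, 1 and 2, and only the libraries of the comparison gave 6, 6, 0 and 0. The latter ended the calls of H19, Ndn, Magel2, Gnas and Slc38a4 on gelatin (adjusted p 0.0555 to 0.111), of Phlda2, Magel2, Grb10, Plagl1, Impact and Mcts2 on LN511 (0.0522 to 0.11) and of Nnat between coatings in Std (0.0749). For LN511 in Std, 2 were called with no filter, with doubtful zeros kept and with the gene table value for genes above 0 in all 8 libraries, and 3 with doubtful zeros kept and LN511 2i replicate 1 left out. For the interaction, doubtful zeros kept and the gene table value each gave 1. Other scalings, pseudocounts and filters kept the counts within 1.5 times. Of 23 calls on single genes, 6 held whichever library was left out (Phlda2 and Mest on gelatin, H19, Mest, Peg10 and Nnat on LN511), and 1, Peg10 on LN511, held in the 17 alternatives run for it, which do not include the gene table. The gene table could fit 12 of the genes, among them 6 of the 10 called on gelatin and 8 of the 12 called on LN511, and its 3 calls on LN511 were Igf2, Impact and Magel2. It turned the sign of Cdkn1c (0.95 on gelatin, 0.55 on LN511 and 0 between coatings in Std), Mest (0.65) and Slc38a4 (-2.59) on gelatin, and Phlda2 (3.08) and Impact (4.74, adjusted p = 0.00118) on LN511. It also turned Dnmt3a (1.25 on gelatin and 2.58 on LN511) and Cd81 (-3.11 on gelatin). For Cdkn1c, Mest, Slc38a4, Phlda2 and Impact, every gene table value above 0 matched the summed transcripts. The tables differed for them only where the gene table held a 0. Impact was at 24.3 and 27.3 FPKM on LN511 in 2i in the gene table and at 0 in every other library. Mest was at 47.1 and 0 FPKM there on gelatin in Std. The cause of these zeros, and of the shifts in Dnmt3a and Cd81, was not tested.

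Same-numbered libraries did not deviate together over the tested genes (correlations of -0.02 to 0.019). Genes with a doubtful 0 were left out of these correlations, which cannot exclude that the numbers pair the samples. With the replicate number as a block, 5 genes were called for 2i on gelatin, 10 for 2i on LN511 and 0 in the other 3 comparisons. At 2 libraries per group and these depths, a level of 0.192 to 0.23 FPKM on a transcript of 2000 bases rests on 1 fragment.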
